A study of Mus musculus with 20 samples.

Results

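Messenger RNA of 7 genes of cholesterol synthesis, transfer and sterol sensing, Hmgcs1, Idi1, Sqle, Msmo1, Hsd17b7, Stard4 and Insig1, was followed in the livers of mice labelled as knockout (KO) or wild type (WT) for O-GlcNAc transferase (OGT), which puts single N-acetylglucosamine sugars on proteins of the cytosol and nucleus. The genes were taken by symbol from the array's annotation, with 1 row for each symbol, and are 7 of 19505 genes tested. Livers came from 4 groups of 5 mice: 8-week-old OGTL KO, 8-week-old OGTL WT, 4-week-old OGTL KO and 4-week-old OGTL WT. The labels give the tissue, the age and the genotype, and they do not name the promoter that drives the deletion, the strain or the sex. RNA from powdered frozen whole liver was hybridised to 20 Clariom S Mouse arrays, 1 for each mouse, and values are the deposited log2 signals, on which a step of 1 is a doubling.

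Cells make cholesterol from acetyl-CoA through mevalonate, isoprenyl diphosphates, squalene and lanosterol. The genes of this route are switched on by SREBP2, a membrane-bound transcription factor that its escort protein SCAP carries to the Golgi for cleavage when membrane sterol is low, and INSIG proteins hold SCAP in the endoplasmic reticulum when sterol is high. SREBP2 acts at sterol regulatory elements, usually beside sites for the factor NF-Y, and the liver is a main site of both cholesterol synthesis and lipoprotein uptake. Hmgcs1 encodes the cytosolic HMG-CoA synthase that acts just before the rate-limiting reductase. Idi1 encodes isopentenyl diphosphate isomerase, Sqle the squalene epoxidase that commits squalene to sterols, Msmo1 the oxidase that starts removal of the C4 methyl groups, and Hsd17b7 the ketosteroid reductase of the same demethylation. Stard4 encodes a soluble protein that moves cholesterol between membranes, and Insig1 is itself a target of SREBP2 and the brake on its processing.

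RefSeq promoter sequences (GRCm38.p6, 250 bases before to 50 after the annotated start) matched 5 of the 7 genes, and 4 are shown, 2 with the core of a sterol regulatory element and 2 with an E-box, the motif families that SREBP proteins bind. The matched promoter not shown, that of Idi1, held neither of these motifs. Capitals mark, on either strand, that core, TCACNCCA, the NF-Y motif CCAAT, which appears as its reverse complement where it lies on the other strand, and the E-box CACGTG, and no matches overlapped. Each line runs 5′ to 3′ on the gene's own strand.
Msmo1: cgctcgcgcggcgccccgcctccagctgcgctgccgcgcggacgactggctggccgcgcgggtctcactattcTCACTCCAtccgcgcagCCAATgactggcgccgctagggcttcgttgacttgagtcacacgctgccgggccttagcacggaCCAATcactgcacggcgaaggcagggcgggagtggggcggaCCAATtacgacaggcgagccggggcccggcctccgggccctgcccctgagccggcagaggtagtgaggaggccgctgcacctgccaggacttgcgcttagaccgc
Hmgcs1: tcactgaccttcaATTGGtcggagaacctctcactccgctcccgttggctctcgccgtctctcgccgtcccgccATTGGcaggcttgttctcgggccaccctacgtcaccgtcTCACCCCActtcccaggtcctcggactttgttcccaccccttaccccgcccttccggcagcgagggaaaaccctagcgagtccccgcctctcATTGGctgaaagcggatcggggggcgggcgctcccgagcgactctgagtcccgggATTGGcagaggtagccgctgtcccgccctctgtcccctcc
Hsd17b7: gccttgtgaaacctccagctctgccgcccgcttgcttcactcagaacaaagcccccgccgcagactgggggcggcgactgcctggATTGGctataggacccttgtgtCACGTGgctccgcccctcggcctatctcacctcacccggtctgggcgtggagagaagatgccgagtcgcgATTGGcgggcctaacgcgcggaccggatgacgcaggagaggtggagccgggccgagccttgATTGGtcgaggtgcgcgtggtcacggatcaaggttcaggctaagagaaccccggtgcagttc
Insig1: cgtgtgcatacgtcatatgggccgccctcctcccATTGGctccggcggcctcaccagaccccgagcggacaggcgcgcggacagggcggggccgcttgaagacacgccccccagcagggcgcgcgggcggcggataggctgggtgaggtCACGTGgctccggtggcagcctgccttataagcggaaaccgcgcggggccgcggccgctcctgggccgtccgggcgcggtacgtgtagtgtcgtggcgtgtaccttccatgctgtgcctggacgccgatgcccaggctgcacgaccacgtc

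These windows are chr8:64733529-64733828 (minus strand) for Msmo1, chr13:119690101-119690400 (plus) for Hmgcs1, chr1:169969156-169969455 (minus) for Hsd17b7 and chr5:28071162-28071461 (plus) for Insig1. The sterol element core lay 177 bases before the start of Msmo1 and 137 bases before that of Hmgcs1, and 4.36% of 32851 promoters of this length in the RefSeq table hold it. CCAAT was present in all 5 matched promoters, with 4 copies in Hmgcs1, 3 each in Msmo1 and Hsd17b7, 2 in Idi1 and 1 in Insig1, and 37.4% of promoters hold at least 1. The E-box lay 143 bases before the start of Hsd17b7 and 101 bases before that of Insig1, and 7.15% of promoters hold it. A match of letters is a description of the window, not a binding site.

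Ogt, the targeted gene, was measured first as a check of the labels. At 4 weeks it ranged over 7.37 to 8.84 in KO livers and 9.14 to 9.87 in WT livers, with no overlap. The difference was -1.43 (SE 0.20, limma adjusted p = 8.82e-05), or 37.1% of the WT level. At 8 weeks it ranged over 9.55 to 10.01 in KO livers and 9.84 to 10.33 in WT livers, and the difference of -0.27 did not pass (limma adjusted p = 0.529; exact two-sided permutation p = 0.0794). The 8-week arrays are therefore described by their labels, as livers labelled KO and WT. Whether its probes lie inside the deleted part was not given in the labels.

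The 20 arrays had medians of 5.42 to 5.58 and mean correlations of 0.977 to 0.990 with the other arrays of their group. The medians differed by genotype: 5.52 to 5.58 in KO and 5.42 to 5.51 in WT livers at 8 weeks. At 4 weeks they were 5.54 to 5.58 in KO and 5.46 to 5.56 in WT livers. That 5.56 was WT replicate 4, and the other WT arrays reached 5.49. Fits with array medians set equal are given below. Skeletal muscle markers were high on 3 arrays, KO replicates 4 and 5 and WT replicate 4 at 4 weeks, where Acta1 exceeded 10. The mean of 10 muscle markers was 11.47 and 11.70 on those KO arrays and 13.93 on the WT array, against 4.57 to 6.05 on the other arrays. The mean of 10 hepatocyte markers lay between 18.24 and 18.63 on every array, and 0 of the 10 passed the test in any comparison. In whole-liver RNA, fewer cells of a type and less RNA per cell cannot be told apart. Groups shared a single fit, in which a gene passed at an adjusted p below 0.05 over all 19505 genes, and with 5 arrays against 5 the exact permutation test cannot give a p below 0.00794.

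All 7 genes were well above the background level, taken as the 95th percentile of 1412 olfactory and vomeronasal receptor genes (5.01 to 5.20 by group). Signals of different genes depend on their probes and are not set against each other here.

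**Figure D1:**
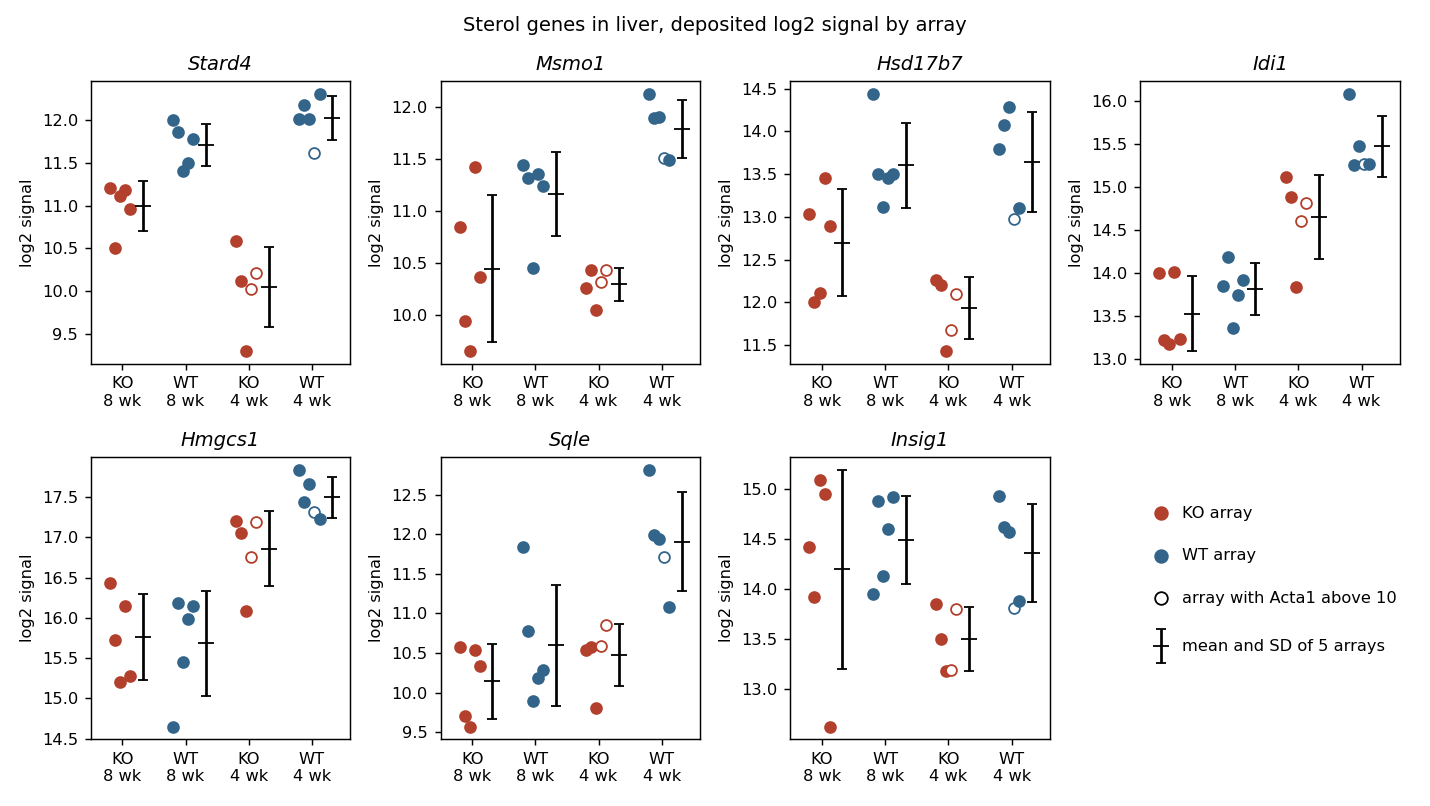
Deposited log2 signal of the 7 genes on each array (points) in KO and WT livers at 8 and 4 weeks, with the mean and SD of 5 arrays; open points are the 3 arrays with Acta1 above 10. Each axis covers the range of its own gene and does not start at 0. At 4 weeks the KO arrays lie below all WT arrays for every gene but Insig1, and at 8 weeks only Stard4 has separate groups.

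At 4 weeks the cholesterol genes were lower in KO livers. Of the 7 genes, 5 fell (Stard4, Hsd17b7, Msmo1, Sqle and Idi1), 0 rose and 2 did not pass (Hmgcs1 and Insig1), against 5.48% of all genes called lower and 4.70% called higher. KO and WT arrays did not overlap for 6 of the 7, all but Insig1, against 4.49% of all genes with every KO array below every WT array. The median difference of the 7 was -1.44, and that of all genes was 0.002. These genes were chosen with earlier results of the same arrays known, so the counts describe them and are no independent evidence of a direction.

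The enzymes are taken in the order of the pathway. Hmgcs1 measured 17.20, 17.05, 16.09, 16.75 and 17.19 in KO livers at 4 weeks, against 17.84, 17.44, 17.66, 17.31 and 17.23 in WT livers. All KO arrays lay below all WT arrays, though the top KO arrays came close to the lowest WT array. The difference of -0.64 (SE 0.29) did not pass (limma adjusted p = 0.182), with an exact permutation p of 0.00794. Every 4-week array exceeded 16, the top of a 16-bit scanner's log2 range, so fold differences of this gene may be stretched.

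Idi1 measured 15.12, 14.88, 13.84, 14.60 and 14.82 in KO livers, against 16.08, 15.26, 15.48, 15.27 and 15.27 in WT livers. The groups did not overlap, and KO replicate 3 and WT replicate 1 stood farthest out in opposite directions. Idi1 fell by 0.82 on the log2 scale (SE 0.24, limma adjusted p = 0.0288), to 56.6% of WT. Leaving out KO replicate 3 or 4, or WT replicate 1 or 3, took the adjusted p to between 0.0537 and 0.0865, and leaving out the 3 arrays with high muscle markers gave -0.91 with an adjusted p of 0.0665.

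Sqle measured 10.54, 10.58, 9.81, 10.59 and 10.85 in KO livers, against 12.82, 11.99, 11.94, 11.72 and 11.08 in WT livers. The lowest WT array was only just above the highest KO array, and 4 WT arrays stood well clear of the KO group. Sqle fell by 1.44 (SE 0.33, limma adjusted p = 0.00682), to 37.0% of WT.

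For Msmo1 the KO livers were tightly grouped at 10.26, 10.43, 10.04, 10.31 and 10.43, against 12.13, 11.90, 11.91, 11.51 and 11.49 in WT livers. More than 1 log2 unit separated the groups. Msmo1 fell by 1.49 (SE 0.26, limma adjusted p = 0.000579), to 35.5% of WT.

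Hsd17b7 measured 12.26, 12.20, 11.43, 11.68 and 12.10 in KO livers, against 13.80, 14.07, 14.29, 12.97 and 13.10 in WT livers. The WT livers spread into 3 high and 2 lower arrays, all above the KO arrays. Hsd17b7 fell by 1.71 (SE 0.30, limma adjusted p = 0.000775), to 30.5% of WT.

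Stard4, the cholesterol transfer gene, measured 10.59, 10.12, 9.30, 10.02 and 10.21 in KO livers, against 12.02, 12.18, 12.02, 11.62 and 12.31 in WT livers. The highest KO array was about 1 log2 unit under the lowest WT array. Its difference of -1.98 (SE 0.20, limma adjusted p = 1.92e-06), or 25.3% of WT, was the largest among the 7 genes. It ranged over -2.12 to -1.80 when single arrays were left out.

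Insig1, the sterol-sensing brake, measured 13.85, 13.50, 13.18, 13.19 and 13.80 in KO livers, against 14.93, 14.62, 14.57, 13.81 and 13.88 in WT livers. WT replicates 4 and 5 were level with the top of the KO group, so the groups overlapped. The difference of -0.86 (SE 0.35) did not pass (limma adjusted p = 0.137; exact permutation p = 0.0159). It passed with only the 4-week groups in the fit (limma adjusted p = 0.0362), with the replicate number as a block in that fit (0.0292), with array weights (0.0499) and without KO replicate 5 at 8 weeks (0.0368).

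A single KO liver, replicate 3, had the lowest value of its group for all 7 genes. Without it 4 of the 7 genes passed at 4 weeks, all lower, and the median difference was -1.27 (range -1.80 to -0.45). Without the 3 arrays with high muscle markers, 4 of the 7 passed, all lower, and the median was -1.61. The mean of the 10 hepatocyte markers was 18.24 to 18.46 in KO livers and 18.52 to 18.63 in WT livers, and that of 9 macrophage markers was 8.65 to 9.10 in KO livers and 8.12 to 8.59 in WT livers, with 2 of the 9 called higher. Of other markers, 1 of 6 endothelial ones was called lower and 1 of 9 neutrophil and lymphocyte ones higher. The shares of all genes called were 5.48% lower and 4.70% higher. The part of these marker levels in the lower cholesterol genes was not tested.

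**Figure D2:**
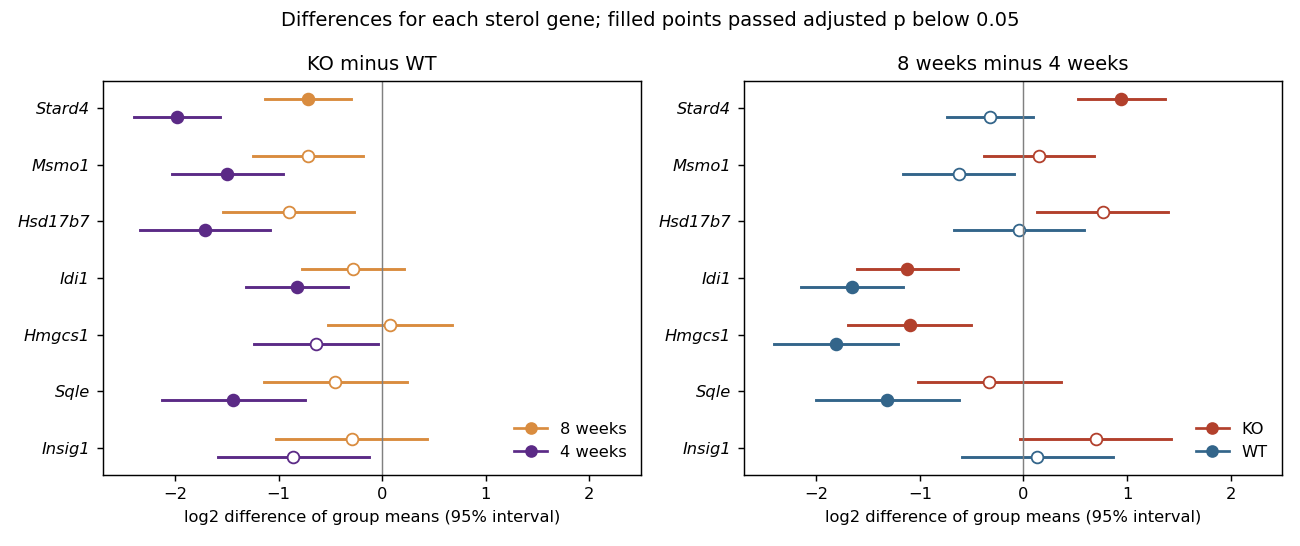
Log2 difference of group means with its 95% interval for the 7 genes, KO minus WT at 8 and 4 weeks (left panel) and 8 minus 4 weeks in KO and WT livers (right panel); filled points passed at a limma adjusted p below 0.05. In the left panel the 4-week points lie left of the 8-week points for every gene, and in the right panel Idi1 and Hmgcs1 lie left of 0 in both genotypes while Stard4 lies right of 0 in KO livers.

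At 8 weeks Stard4 alone among the 7 genes passed, again lower in livers labelled KO, against 1.65% of all genes called lower and 4.94% called higher. With array medians set equal 3 of the 7 were called lower, and the share of all genes called lower was then 4.39%. Stard4 was also the only one of the 7 whose groups did not overlap, against 1.96% of all genes with every KO array below every WT array. The median difference of the 7 was -0.45, and that of all genes was -0.04. The count of 1 gene called became 3 without KO replicate 4, 2 without WT replicate 3, and 0 without KO replicate 2 or 5 or WT replicate 1, 2 or 5.

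Stard4 measured 11.21, 10.50, 11.11, 11.19 and 10.96 in KO livers at 8 weeks, against 12, 11.86, 11.41, 11.50 and 11.78 in WT livers. KO replicate 2 was lowest, and the top KO arrays came close to the lowest WT array. Stard4 fell by 0.72 (SE 0.20, limma adjusted p = 0.0325), to 60.9% of WT. Leaving out KO replicate 2 or 5 or WT replicate 1, 2 or 5 took the adjusted p to between 0.0628 and 0.107, and it was 0.0584 with quantile normalization repeated and 0.0544 with the replicate number as a block in a fit of the 8-week groups.

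Among the demethylation enzymes, Msmo1 measured 10.85, 9.94, 9.65, 11.42 and 10.36 in KO livers, against 11.44, 11.32, 10.45, 11.36 and 11.24 in WT livers. KO replicate 4 sat within the main WT cluster and WT replicate 3 within the KO range, so the groups overlapped. The difference of -0.72 (SE 0.26) did not pass (limma adjusted p = 0.105). It passed without KO replicate 4 (-0.96, limma adjusted p = 0.0103) and without WT replicate 3 (-0.90, 0.0421).

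Hsd17b7 measured 13.03, 12, 12.11, 13.46 and 12.89 in KO livers, against 14.44, 13.50, 13.11, 13.46 and 13.50 in WT livers. As for Msmo1, KO replicate 4 reached the WT range and WT replicate 3 was the lowest WT array. The difference of -0.90 (SE 0.30) did not pass (limma adjusted p = 0.0804), and it passed without KO replicate 4 (-1.09, 0.0319) and with the replicate number as a block in a fit of the 8-week groups (0.0460). With array medians set equal, which gave a median over all genes of -0.15 at 8 weeks in place of -0.04, both Msmo1 (limma adjusted p = 0.0457) and Hsd17b7 (0.0413) passed.

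The other 4 genes did not pass at 8 weeks. Sqle measured 10.57, 9.70, 9.57, 10.54 and 10.33 in KO livers, against 11.84, 10.78, 9.89, 10.19 and 10.28 in WT livers, with WT replicate 1 far above the rest. Idi1 measured 14, 13.23, 13.18, 14.01 and 13.24 in KO livers, against 13.85, 14.19, 13.37, 13.75 and 13.92 in WT livers. In both genes the KO and WT arrays were interleaved: the difference was -0.45 for Sqle (95% interval -1.14 to 0.24, limma adjusted p = 0.500) and -0.28 for Idi1 (-0.78 to 0.21, 0.567).

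Hmgcs1 measured 16.43, 15.73, 15.20, 16.15 and 15.28 in KO livers, against 14.65, 16.19, 15.45, 15.98 and 16.15 in WT livers. WT replicate 1, the highest 8-week WT array for Stard4, Msmo1, Hsd17b7 and Sqle, was the lowest of all 20 arrays for Hmgcs1. The difference was 0.07 (95% interval -0.52 to 0.67, limma adjusted p = 0.930) and was below 0 without WT replicate 1 (-0.18), without KO replicate 1 (-0.094) or 4 (-0.024), and with array medians set equal (-0.04).

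Insig1 measured 14.42, 13.92, 15.09, 14.95 and 12.63 in KO livers, against 13.95, 14.88, 14.13, 14.60 and 14.92 in WT livers. KO replicate 5 was the lowest of all 20 arrays and KO replicate 3 the highest, so the KO group held the whole WT range. The difference was -0.29 (95% interval -1.02 to 0.44, limma adjusted p = 0.716), and it was 0.10 without KO replicate 5.

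Many markers of cholangiocytes, stellate cells and fibroblasts, and macrophages were called higher at this age. All 6 of the 6 cholangiocyte markers tested were called higher in livers labelled KO, with array means of 6.71 to 9.20 in KO livers and 4.69 to 5.94 in WT livers, and the highest mean was on KO replicate 5. Of 8 stellate and fibroblast markers 5 were called higher (9.18 to 10.62 in KO livers, 7.73 to 8.63 in WT livers), and of 9 macrophage markers 5 were called higher (7.92 to 8.92 in KO livers, 7.67 to 7.81 in WT livers). Of 6 endothelial markers 1 was called higher, and of 9 neutrophil and lymphocyte markers 1 was called lower. The shares of all genes called were 4.94% higher and 1.65% lower. The mean of the hepatocyte markers was 18.36 to 18.47 in KO livers and 18.33 to 18.46 in WT livers. The part of these cells in the 8-week values was not tested.

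The change of the KO effect between the ages was tested as an interaction, the KO minus WT difference at 8 weeks minus that at 4 weeks. It was positive for all 7 genes, 0.54 to 1.27 with a median of 0.78, and it passed for Stard4 alone, against 2.05% of all genes called in that direction. For Stard4 the KO effect was -0.72 at 8 weeks and -1.98 at 4 weeks, a difference of 1.27 (SE 0.28, limma adjusted p = 0.0181), which passed on leaving out any 1 array (0.00884 to 0.0389). Of the marker lists, 3 of 6 cholangiocyte, 2 of 8 stellate and fibroblast, 1 of 9 macrophage and 1 of 6 endothelial markers passed the interaction upwards and 1 of 9 neutrophil and lymphocyte markers downwards, and their part was not tested. Among all 19505 genes 399 passed upwards and 196 downwards. Sqle had an interaction of 0.98 (SE 0.47, limma adjusted p = 0.312), Hsd17b7 of 0.81 (SE 0.43, 0.378), Msmo1 of 0.78 (SE 0.36, 0.298) and Hmgcs1 of 0.71 (SE 0.41, 0.420). Idi1 (0.54, SE 0.33, limma adjusted p = 0.475) and Insig1 (0.56, SE 0.50, 0.647) gave the smallest values. A smaller KO effect at 8 weeks was thus shown for Stard4, and for the other 6 the test did not pass. The interaction of Ogt itself was 1.16 (limma adjusted p = 0.0307), and it did not pass in 7 of the fits that left out 1 array (0.0514 to 0.0605).

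Several enzyme genes were lower at 8 weeks than at 4 weeks. In WT livers Hmgcs1, Idi1 and Sqle fell, 0 of the 7 genes were higher and 4 did not pass, against 5.23% of all genes called lower and 3.71% called higher. The 8-week WT arrays all lay below the 4-week WT arrays for 3 genes, Hmgcs1, Idi1 and Msmo1, against 5.38% of all genes. This comparison shares the 4-week WT arrays with the KO comparison at 4 weeks, so the values of each are given on their own.

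Hmgcs1 averaged 15.68 ± 0.65 in WT livers at 8 weeks and 17.50 ± 0.25 at 4 weeks (SD, n = 5 each). The difference was -1.81 (SE 0.29, limma adjusted p = 0.000203), or 28.5% of the 4-week level. Idi1 averaged 13.82 ± 0.30 at 8 weeks and 15.47 ± 0.35 at 4 weeks (SD, n = 5 each), a difference of -1.66 (SE 0.24, limma adjusted p = 6.02e-05). Both groups of arrays were clear of each other for these 2 genes.

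Sqle averaged 10.60 ± 0.77 in WT livers at 8 weeks and 11.91 ± 0.62 at 4 weeks (SD, n = 5 each). It was lower by a log2 difference of -1.31 (SE 0.33, limma adjusted p = 0.0134), and only WT replicate 1 at 8 weeks reached into the 4-week range. Msmo1 differed by -0.63 (SE 0.26) with separate groups, and it did not pass (limma adjusted p = 0.142; exact permutation p = 0.00794).

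The late enzyme Hsd17b7, the transfer gene Stard4 and the regulator Insig1 gave smaller age differences in WT livers. Stard4 differed by -0.32 (95% interval -0.74 to 0.10, limma adjusted p = 0.385), Hsd17b7 by -0.04 (-0.67 to 0.59, 0.961) and Insig1 by 0.13 (-0.60 to 0.86, 0.884). The signs of the last 2 turned in some alternatives, Hsd17b7 to 0.01 with array medians set equal and Insig1 to -0.004 without the arrays with high muscle markers. Of the marker lists, 3 of 8 stellate and fibroblast markers were called lower at 8 weeks in WT livers, with array means of 7.73 to 8.63 at 8 weeks and 9.05 to 11.24 at 4 weeks. The 11.24 was on WT replicate 4, the WT array with high muscle markers, and the other 4-week WT arrays reached 9.99. Of 6 endothelial markers 4 were called lower (8.19 to 9.01 at 8 weeks, 9.52 to 10.14 at 4 weeks), and of 9 macrophage markers 3 were called lower and 1 higher (7.67 to 7.81 at 8 weeks, 8.12 to 8.59 at 4 weeks). Of 9 neutrophil and lymphocyte markers 1 was called lower and 1 higher, against 5.23% of all genes called lower and 3.71% called higher. The part of these cells was not tested.

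In KO livers the 7 genes divided. Stard4 was higher at 8 weeks, Idi1 and Hmgcs1 were lower and 4 genes did not pass, against 7.85% of all genes called higher and 6.78% called lower. The arrays of the ages overlapped for all 7, while they did not overlap for 9.47% of all genes. Stard4 averaged 10.99 ± 0.29 in KO livers at 8 weeks and 10.05 ± 0.47 at 4 weeks (SD, n = 5 each), a difference of 0.95 (SE 0.20, limma adjusted p = 0.00238). The overlap came from KO replicate 2 at 8 weeks and KO replicate 1 at 4 weeks.

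Idi1 averaged 13.53 ± 0.43 in KO livers at 8 weeks and 14.65 ± 0.49 at 4 weeks (SD, n = 5 each), and fell by 1.12 (SE 0.24, limma adjusted p = 0.00229). Hmgcs1 averaged 15.76 ± 0.54 at 8 weeks and 16.86 ± 0.47 at 4 weeks (SD, n = 5 each), a difference of -1.10 (SE 0.29, limma adjusted p = 0.0117) that was -1.02 with an adjusted p of 0.0572 without the arrays with high muscle markers. In both genes it was KO replicate 3 at 4 weeks that reached into the 8-week range.

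Hsd17b7 differed by 0.76 (95% interval 0.13 to 1.39, limma adjusted p = 0.101), Insig1 by 0.70 (-0.03 to 1.43, 0.213), Msmo1 by 0.15 (-0.38 to 0.68, 0.781) and Sqle by -0.33 (-1.02 to 0.36, 0.591). Insig1 passed without KO replicate 5 at 8 weeks (1.09, limma adjusted p = 0.00963), and the difference of Msmo1 was -0.094 without KO replicate 4 at 8 weeks. Of 6 cholangiocyte markers 5 were called higher at 8 weeks in KO livers, with array means of 6.71 to 9.20 at 8 weeks and 5.59 to 6.32 at 4 weeks. Of 9 macrophage markers 3 were called higher and 4 lower (7.92 to 8.92 at 8 weeks, 8.65 to 9.10 at 4 weeks). The shares of all genes called were 7.85% higher and 6.78% lower. Of 8 stellate and fibroblast markers 1 was called higher and 1 lower, and of 6 endothelial markers 1 was called lower. The part of these cells was not tested.

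Set in order, the group means took a few shapes. Stard4, Msmo1 and Hsd17b7 were ordered by genotype first: WT at 4 weeks, WT at 8 weeks, KO at 8 weeks and KO at 4 weeks, from high to low. The neighbours in this order overlapped in Hsd17b7, and in Stard4 only the step between KO and WT livers at 8 weeks was free of overlap. Msmo1 averaged 10.44 ± 0.71 in KO livers and 11.16 ± 0.40 in WT livers at 8 weeks, against 10.29 ± 0.16 in KO livers and 11.79 ± 0.28 in WT livers at 4 weeks (SD, n = 5 each). Its highest step, between WT livers of the 2 ages, had no overlap and did not pass (limma adjusted p = 0.142).

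Idi1 and Hmgcs1 were ordered by age first: WT at 4 weeks, KO at 4 weeks and then the 8-week groups, which overlapped in both genes. Sqle was high in WT livers at 4 weeks (11.91 ± 0.62, SD, n = 5), and the other 3 groups averaged 10.14 to 10.60 and overlapped. Insig1 was lowest in KO livers at 4 weeks (13.50 ± 0.32, SD, n = 5), the other 3 groups averaged 14.20 to 14.50, and all neighbours overlapped.

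**Figure D3:**
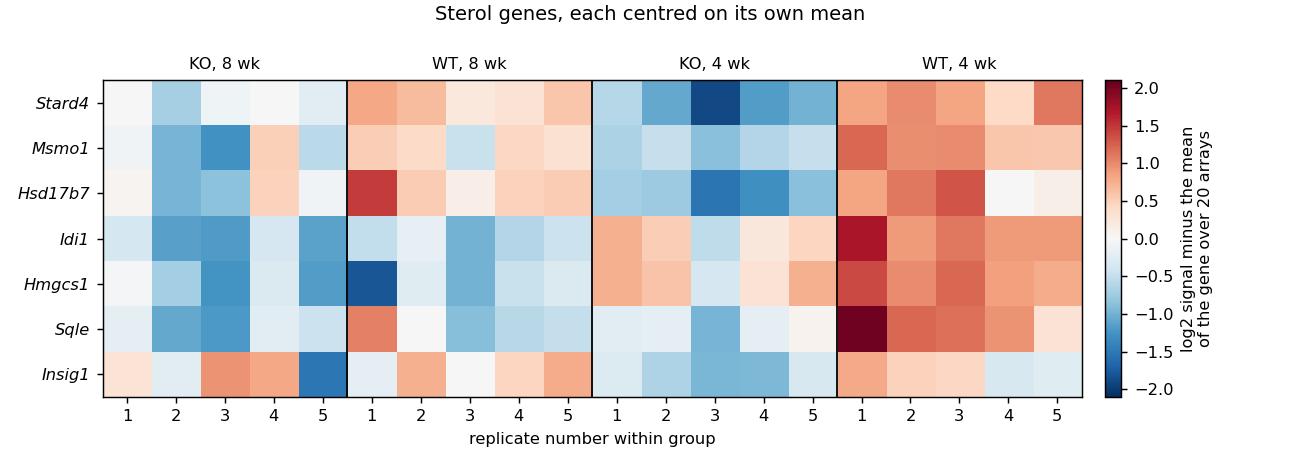
Log2 signal of the 7 genes on each array minus the mean of that gene over 20 arrays, with arrays grouped by genotype and age and replicate numbers given below. WT arrays at 4 weeks are above the mean for nearly all genes; Stard4, Msmo1 and Hsd17b7 are below it in all KO arrays at 4 weeks, and Idi1 and Hmgcs1 lie below it in all 8-week arrays.

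Pairs of the 7 genes differed in how closely they varied together over the 20 arrays, which is given as a description because the arrays share groups and normalization. Pearson's r ran from 0.06 to 0.92 over the 21 pairs of genes, with a median of 0.58. It was highest for Idi1 with Hmgcs1 (0.92), Stard4 with Hsd17b7 (0.89) and Msmo1 with Hsd17b7 (0.86), and lowest for Hsd17b7 with Hmgcs1 (0.06), Hmgcs1 with Insig1 (0.09) and Idi1 with Insig1 (0.10). After each array was set relative to its group mean, r ran from 0.10 to 0.79 with a median of 0.51, and it was positive for every pair.

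Within groups, a few livers were low or high across many of the genes. KO replicate 3 at 8 weeks was lowest of its group for 4 genes and WT replicate 3 at 8 weeks for 5. WT replicate 1 at 4 weeks was highest for 5, and KO replicate 1 at 4 weeks for 5. Replicate numbers here name mice within a group. The labels do not say whether they link mice across groups, and they were not taken to do so.

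The rest of the route to cholesterol was examined as a list of 22 genes, 18 of which had a row and include 5 of the 7 genes (the other 4 were not analysed here). At 4 weeks 8 of the 18 were lower in KO livers, 0 were higher and 10 did not pass. The shares of all genes called were 5.48% lower and 4.70% higher. Of the 13 outside the 7 genes, 4 fell: Pmvk, the phosphomevalonate kinase gene (-1.87, limma adjusted p = 0.00954), Lss, the lanosterol synthase gene (-1.30, 0.0275), Fdps, the farnesyl diphosphate synthase gene (-1.13, 0.0208), and Nsdhl, a C4 demethylation gene (-0.98, 0.0161). The median of the 18 was -0.75, against 0.002 for all genes. Of the 18 differences 17 were negative, against 9684 of all 19505. The count of 8 became 4 without KO replicate 3 at 4 weeks, and 5 without KO replicate 4 or WT replicate 1. Lss lost its call without KO replicate 2, 3 or 4 or WT replicate 1 (limma adjusted p = 0.0525 to 0.0799), Fdps without KO replicate 3 or 4 or WT replicate 1 (0.0547 to 0.0643), and Nsdhl without KO replicate 3 (0.0527). Without the 3 arrays with high muscle markers Fdps (limma adjusted p = 0.0908) and Lss (0.0540) did not pass.

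At 8 weeks 0 of the 18 passed by limma in either direction, against 3 lower and 0 higher at an unadjusted p below 0.05. The shares of all genes called were 1.65% lower and 4.94% higher, and a count of 0 among 18 is near them. At that unadjusted p 1743 of 19505 genes were lower and 2044 higher. The median of the 18 at 8 weeks was -0.28, against -0.04 for all genes. Of the 18 differences 15 were negative, against 10920 of all 19505. With array medians set equal 2 of the 18 were called lower, Msmo1 and Hsd17b7, as they were without KO replicate 4, and 1 was called lower without WT replicate 3. Under equal medians 4.39% of all genes were called lower. The interaction passed by limma for 0 of the 18 (3 higher and 0 lower at an unadjusted p below 0.05), and for 1 without KO replicate 5 at 8 weeks. Among all genes 2.05% were called higher, and at that unadjusted p 1737 of 19505 were higher and 1359 lower. The median interaction of the 18 was 0.57, against -0.02 for all genes. It was negative for 1 of the 18, against 10200 of all 19505.

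Most of the route was lower in the older WT livers. In WT livers 5.23% of all genes were called lower at 8 weeks and 3.71% higher. Of the 18, 13 were lower, 0 were higher and 5 did not pass, with a median of -1.07 against 0.04 for all genes. Outside the 7 genes they included Fdft1, the squalene synthase gene (-1.28, limma adjusted p = 0.00101), Lbr, a sterol C14 reductase of the nuclear envelope (-0.96, 0.00260), Cyp51, the lanosterol demethylase gene (-1.11, 0.00429), and Erg28, which encodes a scaffold of the demethylation enzymes (-0.95, 0.00659). In KO livers 4 of the 18 were lower at 8 weeks, Idi1, Hmgcs1, Fdft1 (-0.98, limma adjusted p = 0.00643) and Dhcr7, the last reductase of the pathway (-1.01, 0.0468, lost without any 1 of 13 arrays and in 5 other alternatives), and the median was -0.45 against 0.02. The shares of all genes called in KO livers were 6.78% lower and 7.85% higher. Whether the age difference of each enzyme differed between genotypes is the interaction given above, which passed for 0 of the 18.

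**Figure D4:**
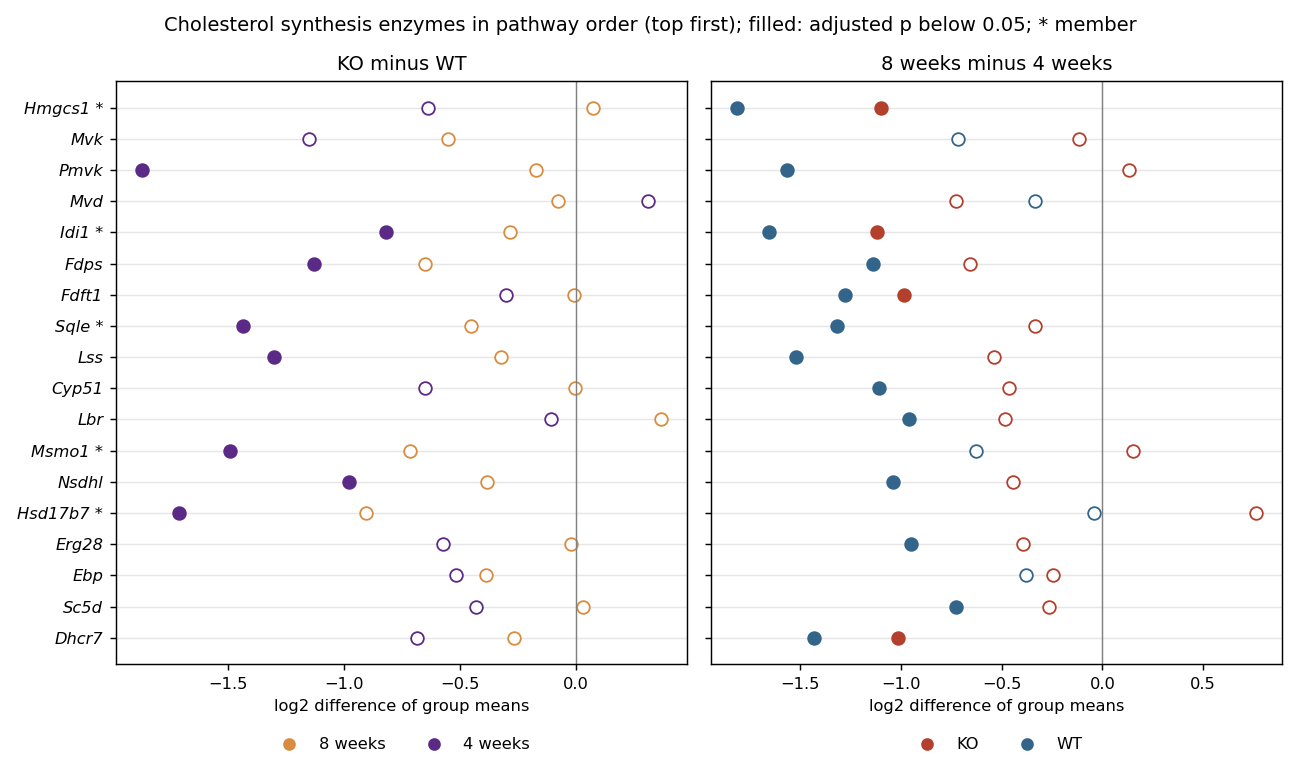
Log2 difference of group means for 18 cholesterol synthesis genes in pathway order from top to bottom, KO minus WT at 8 and 4 weeks (left panel) and 8 minus 4 weeks in KO and WT livers (right panel); filled points passed at a limma adjusted p below 0.05 and asterisks mark 5 of the 7 genes. At 4 weeks 8 points are filled and all lie left of 0, at 8 weeks none is filled, and in WT livers 13 age differences are filled and negative.

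Regulators of SREBP processing were examined as a list. Of 10 genes tested, Insig1 among them, 2 fell and 1 rose in KO livers at 4 weeks. The shares of all genes called were 5.48% lower and 4.70% higher. Scap, the escort protein gene, fell by 1.17 (SE 0.28, limma adjusted p = 0.00815). Srebf2, which encodes SREBP2 itself, fell by 0.62 (SE 0.18, limma adjusted p = 0.0358), a call that 7 of the single-array omissions ended and that was also lost with quantile normalization repeated (0.0693) and with the replicate number as a block (0.0646). Rnf139, a ubiquitin ligase gene of the sterol-sensing machinery, rose by 0.41 (SE 0.12, limma adjusted p = 0.0270, lost without any 1 of 4 arrays and in 4 other alternatives, 0.0598 to 0.0850). Insig2, the second INSIG gene, differed by 0.09 (limma adjusted p = 0.905), with a sign that turned to -0.07 without the arrays with high muscle markers.

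At 8 weeks 0 of the 10 regulators passed by limma, against 2 lower and 1 higher at an unadjusted p below 0.05. The shares of all genes called were 1.65% lower and 4.94% higher. At that unadjusted p 1743 of 19505 genes were lower and 2044 higher. Scap differed by -0.72 (limma adjusted p = 0.143; 0.0428 without WT replicate 1), Srebf2 by -0.10 (0.829) and Insig2 by -0.31 (0.624). With age, 2 of the 10 were called lower and 0 higher in WT livers, and 2 lower and 1 higher in KO livers. Of all genes 5.23% were called lower and 3.71% higher in WT livers, and 6.78% lower and 7.85% higher in KO livers. Rnf145, another ligase gene of this machinery, fell with age by 1.27 in WT livers (limma adjusted p = 0.00385) and by 1.11 in KO livers (0.00725). Srebf2 fell by 0.68 in WT livers (limma adjusted p = 0.0224, lost without any 1 of 4 arrays and, at 0.0502, without the arrays with high muscle markers), and its difference in KO livers was -0.16 (0.649). In KO livers Paqr3, a Golgi anchor gene of SCAP, was higher at 8 weeks (0.68, limma adjusted p = 0.0223, lost without any 1 of 4 arrays, with array weights and, at 0.132, without the arrays with high muscle markers), and Rnf139 was lower (-0.35, 0.0456, lost without any 1 of 15 and in 6 other alternatives).

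In KO livers at 4 weeks 5.48% of all genes were called lower and 4.70% higher. Of 13 genes of cholesterol uptake and intracellular transfer, 3 fell and 0 rose. Beside Stard4 these were Tmem97, which encodes a sterol-regulated membrane protein (-1.39, SE 0.24, limma adjusted p = 0.000505), and Scarb1, the gene of the HDL receptor (-0.60, 0.0498, lost without any 1 of 15 arrays and in 5 other alternatives). At 8 weeks Stard4 fell and Npc2, which encodes the lysosomal cholesterol carrier, rose by 0.75 (SE 0.17, limma adjusted p = 0.00904). The shares of all genes called at 8 weeks were 1.65% lower and 4.94% higher. Npc2 differed by -0.39 at 4 weeks (limma adjusted p = 0.177), and its interaction of 1.14 passed (0.0147), as that of Stard4 did. Macrophage markers, given above, were among those called higher at 8 weeks, and their part in the level of Npc2 was not tested. In WT livers Npc2 (-0.69, limma adjusted p = 0.0131) and Tmem97 (-0.77, 0.0433, lost without any 1 of 8 arrays and in 4 other alternatives) were lower at 8 weeks, and in KO livers only Stard4 of the 13 passed. With age 5.23% of all genes were called lower and 3.71% higher in WT livers, and 6.78% lower and 7.85% higher in KO livers.

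Of 9 genes of cholesterol removal and esterification, 0 passed by limma in KO livers at 4 weeks (2 lower and 0 higher at an unadjusted p below 0.05), and 0 passed at 8 weeks (1 lower and 0 higher). Among so few genes a count of 0 is near the shares of all genes called, 5.48% lower and 4.70% higher at 4 weeks and 1.65% lower and 4.94% higher at 8 weeks. At an unadjusted p below 0.05, 2319 of 19505 genes were lower and 2044 higher at 4 weeks, and 1743 lower and 2044 higher at 8 weeks. With age in KO livers Lcat, the plasma cholesterol acyltransferase gene, was lower (-0.61, limma adjusted p = 0.0127; 0.0519 with only the KO groups in the fit). Of 10 genes of the other branches of mevalonate use, such as prenylation and dolichol synthesis, 0 passed at 4 weeks (2 lower and 1 higher at an unadjusted p below 0.05). At 8 weeks Rabggta, a gene of Rab prenylation, was lower in livers labelled KO (-0.58, limma adjusted p = 0.0345, lost without any 1 of 7 arrays and with the replicate number as a block). With age Fntb, a farnesyltransferase subunit gene, was higher in WT livers (0.81, 0.0124), and Nus1, a dolichol synthesis gene, was lower in KO livers (-0.42, 0.0409, lost without any 1 of 7 and in 3 other alternatives). Fntb averaged 5.42 in WT livers at 4 weeks, near the background level of 5.01 in that group. Lcat, Fntb and Nus1 were each the only 1 of the 9 or 10 genes of their list called in that comparison. Such counts are near the shares of all genes called with age. These were 5.23% lower and 3.71% higher in WT livers, and 6.78% lower and 7.85% higher in KO livers.

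The fatty acid genes driven by the related factor SREBP1 were set beside them. Of 11 tested, 3 fell and 0 rose in KO livers at 4 weeks: Fads1, a fatty acid desaturase gene (-0.81, limma adjusted p = 0.00135), Acss2, the acetyl-CoA synthetase gene (-1.59, 0.0143), and Thrsp, a lipogenic regulator gene (-2.16, 0.0499, lost without any 1 of 12 arrays and in 5 other alternatives). The shares of all genes called at 4 weeks were 5.48% lower and 4.70% higher. The median of the 11 was -0.24 at 4 weeks, and at 8 weeks it was 0.30 with 0 called by limma (0 lower and 1 higher at an unadjusted p below 0.05). At 8 weeks 1.65% of all genes were called lower and 4.94% higher. At that unadjusted p 1743 of 19505 genes were lower and 2044 higher. Fads1 had an interaction of 0.99 (limma adjusted p = 0.0164). With age 6 of the 11 were lower in WT livers, Acaca, the acetyl-CoA carboxylase gene, with the smallest adjusted p (-1.83, 7.77e-05), with Fads2 (-1.11, 0.000501), Fads1 (-0.80, 0.00147) and the elongase gene Elovl6 (-1.51, 0.0204, lost without any 1 of 4). In KO livers Acaca (-1.27, limma adjusted p = 0.00229) and Fads2 (-0.57, 0.0480, lost without any 1 of 16 and in 4 other alternatives) were lower at 8 weeks and Scd1, the stearoyl-CoA desaturase gene, was higher (0.54, 0.0357, lost without any 1 of 6 and in 4 other alternatives). With age 5.23% of all genes were called lower and 3.71% higher in WT livers, and 6.78% lower and 7.85% higher in KO livers.

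Outside the 7 genes, the 8 genes whose signal over the 20 arrays was most like the mean of the 7, each centred and scaled, were found by Pearson's r, which is given as a description. Fdps (r = 0.85) and Nsdhl (0.84) were again of the cholesterol route. The other 6 were not in any list: Tmx2, a thioredoxin-related membrane protein gene (0.90), Gstt1, a glutathione transferase gene (0.85), Mmab, the cobalamin adenosyltransferase gene (0.84), Rdh11, a retinol dehydrogenase gene (0.81), Dnajc30 (0.81) and Tmem184c (0.81). Tmx2 averaged 10.76 in KO and 11.21 in WT livers at 8 weeks, and 10.85 in KO and 11.61 in WT livers at 4 weeks. Rdh11 averaged 10.96 in KO and 10.82 in WT livers at 8 weeks, and 10.54 in KO and 12.51 in WT livers at 4 weeks, with WT livers at 4 weeks standing above the other 3 groups. Its interaction of 2.12 passed (limma adjusted p = 0.00565), as did that of Tmem184c (0.91, 0.0171). Relative to group means the r of the 8 genes with the 7 ran from 0.33 for Tmem184c to 0.75 for Fdps.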

How the data were processed

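Liver RNA of 20 mice was hybridised to Clariom S Mouse arrays. The authors deposited log2 signals for 22206 features, made with RMA in Affymetrix Expression Console per the submitters' processing notes; the versions and the genome build are not given in the sources used here. RMA scales arrays to each other, so a shift shared by most genes would be reduced. The deposited log2 values ran from 2.32 to 19.85 and were used as deposited, and 254 to 288 features per array lay above 16, where fold differences may be stretched. The number of arrays limits the precision.

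The platform annotation gave 19572 features 1 symbol, 0 several and 2634 none. For the 55 symbols with more than 1 row, the row with the highest mean was kept, leaving 19505 genes. Groups came from the genotype and age labels. limma 3.58.1 (R 4.3.3) fitted 4 group means with empirical Bayes moderation and Benjamini-Hochberg adjustment over all 19505 genes, with exact two-sided permutation tests for single genes. The limma fit was run on simulated arrays with independent noise for each gene and known shifts in the 4-week KO group alone. That run does not cover noise shared between genes, offsets of arrays or the other comparisons. The 7 genes and all lists were chosen with earlier results of these data known. Text names the 7 genes, Ogt, Srebf2, Scap and Insig2 in the comparisons, up to 4 other genes per list and comparison with the smallest adjusted p, and the 8 genes most like the 7. Symbols without a row of their own were not analysed here. Alternatives were other scaling, a filter on dim genes, averaged rows, another prior, separate fits, array weights, a replicate block (also, added after seeing the data, within the groups of 1 age), and fits without the arrays with Acta1 above 10 or without each array in turn. Promoter sequences came from RefSeq (GRCm38.p6); scan dates were not used here.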

Additional observations from a re-analysis of the deposited data

Results flagged for a closer look

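The KO minus WT difference changed between the ages for 6 of the genes named, with the value at 8 weeks minus that at 4 weeks passing limma's test: Rdh11 (2.12, adjusted p = 0.00565), Stard4 (1.27, 0.0181), Ogt (1.16, 0.0307), Npc2 (1.14, 0.0147), Fads1 (0.99, 0.0164) and Tmem184c (0.91, 0.0171).

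A single array stood apart from the other 4 of its group in 12 of 172 sets of 5 values (7 genes and 36 others, 4 groups), by a gap of over 0.71 of the range; chance gives about 1 in 20. Among the 7 genes, Msmo1 was 10.45 in WT replicate 3 at 8 weeks (others 11.24 to 11.44), and Idi1 was 16.08 in WT replicate 1 at 4 weeks (others 15.26 to 15.48). In KO replicate 3 at 4 weeks, Pmvk was 8.88 (others 10.07 to 10.21), Nsdhl 13.78 (others 14.51 to 14.75) and Cyp51 14.23 (others 15.07 to 15.25). In WT replicate 1 at 8 weeks, Tmem97 was 12.70 (others 11.74 to 11.84), Fads2 16.72 (others 15.99 to 16.16) and Mmab 7.11 (others 7.82 to 7.95). In WT replicate 3 at 4 weeks, Scap was 10.76 (others 11.31 to 11.49), Rnf145 9.58 (others 8.78 to 8.94) and Lcat 15.34 (others 15.73 to 15.82). In KO replicate 4 at 8 weeks, Lbr was 10.04 (others 8.90 to 9.17).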

How the results depend on the processing

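For the 7 genes, 35 differences gave 1022 values under the alternatives: 986 kept their direction and side of the threshold, 13 lost the call, 11 gained it and 12 changed sign. The cause of these changes was not tested. At 8 weeks the count of 1 of 7 genes called was 3 with array medians set equal, 0 with quantile normalization repeated, and 0 to 3 over single arrays left out; that of cholesterol synthesis genes, 0 of 18, was 2 with array medians set equal and 0 to 2 over single arrays. At 4 weeks the 8 of 18 became 4 to 10 over single arrays, and the 4 of 18 lower with age in KO livers became 2 without the arrays with Acta1 above 10. The interaction of the 18 passed for 0 to 1, and that of all genes for 385 to 747 (595 with all arrays; 385 without KO replicate 1 at 8 weeks). Setting array medians equal moved the share of higher calls among all genes to 48.3%, against 75%, for KO at 8 weeks, to 33.2%, against 46.2%, for KO at 4 weeks, and to 52.0%, against 41.5%, for age in WT livers.

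Signs changed only in differences that passed in no setting shown here. With array medians set equal these were Hmgcs1 at 8 weeks (-0.04) and Hsd17b7 with age in WT livers (0.01), and without the arrays with Acta1 above 10 they were Insig2 at 4 weeks (-0.066) and Insig1 with age in WT livers (-0.004). Over single arrays left out, KO minus WT ranged from -0.083 to 0.26 for Insig2 at 4 weeks, and at 8 weeks from -0.18 to 0.21 for Hmgcs1, -0.52 to 0.10 for Insig1 and -0.22 to 0.046 for Srebf2. With age in WT livers the ranges were -0.25 to 0.12 for Hsd17b7, -0.004 to 0.28 for Insig1 and -0.23 to 0.17 for Insig2, and in KO livers -0.094 to 0.35 for Msmo1 and -0.12 to 0.21 for Scap.

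Replicate numbers were not taken to pair the mice, because not every same-numbered pair of arrays had deviations correlated over 0.1. Between KO and WT livers at 4 weeks 4 of the 5 pairs did (r of 0.139, 0.320, 0.159 and 0.479 for numbers 1 to 4, and -0.146 for number 5), and between KO and WT livers at 8 weeks 1 of 5 did. Over all 30 pairs across groups 5 did (r -0.18 to 0.48), and 4 of 20 arrays correlated best with their own number. At 4 weeks both arrays of number 4 had Acta1 above 10 (15.04 in KO, 15.89 in WT). For number 5 only the KO array did (15.43, against 4.72 in WT). The part of muscle RNA in these correlations was not tested. With the number as a block, 5, 1, 1, 3 and 3 of the 7 genes passed for KO at 4 weeks, KO at 8 weeks, the interaction, age in WT and age in KO livers, the counts without it, and 8, 0, 0, 12 and 4 of the 18. Of other genes named, Srebf2 (adjusted p = 0.0646) and Scarb1 (0.0527) at 4 weeks, Rabggta (0.0582) at 8 weeks, Tmem97 (0.0593) with age in WT livers, and Rnf139 (0.0627), Scd1 (0.0637) and Fads2 (0.0742) with age in KO livers lost their limma calls under the block. A block within the groups of 1 age, an alternative chosen after seeing the data, gave 6 of the 7 genes and 10 of the 18 lower in KO livers at 4 weeks, and 1 of the 7 (Hsd17b7) and 1 of the 18 at 8 weeks.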
